A study of Mus musculus with 6 samples.

Results

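The matrix metalloproteinases (Mmp genes), the ADAM and ADAMTS proteinases, the ADAMTS-like proteins (Adamtsl genes) and the tissue inhibitors of metalloproteinases (Timp genes) were examined in injured mouse quadriceps. Members were the rows whose gene symbol began with Mmp, Timp, Adam, Adamts or Adamtsl followed directly by a digit. There were 52 such genes among 14016 rows. The muscles came from 3 WT mice and 3 mice labelled GATA-1 mutant, the ΔdblGATA line of the study. All 6 mice shared the same treatment, a volumetric muscle loss injury (a defect cut from the muscle) with no scaffold implant. According to the methods, the gap of control injuries received sterile saline instead. The tissue was taken on day 7. The ΔdblGATA mice carry a deletion in the promoter of the transcription factor gene Gata1 in every cell and lack eosinophils. The methods describe the WT mice as young adult female C57BL/6 and wound both lower limbs, and the labels do not give the age or sex of each mouse or the limb sequenced.

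The column used here was the authors' mean level of each gene, in log2 CPM (read counts scaled to the size of the library, on a log2 scale), over the samples of their fit. The table did not name those samples, and the mean is taken here to cover both genotypes. No value per mouse was in the table, so no SD, test or difference between WT and GATA-1 mutant muscle is given, and the total counts and depth of the libraries are unknown. The levels describe how abundant each mRNA was in this set of injured muscles. The precision of a mean could not be estimated, so the place of any gene relative to its neighbours in the order is not established beyond error. Bulk muscle was sequenced, in which more cells of a type and more mRNA per cell cannot be told apart.

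These proteins remodel the matrix that holds muscle fibres. MMPs are zinc-dependent enzymes that cut collagens and other matrix proteins and are made as inactive precursors. ADAMs are mostly membrane-bound enzymes that release cytokines, growth factors and receptors from the cell surface. ADAMTS enzymes are secreted and act on procollagens and proteoglycans, ADAMTS-like proteins share their ancillary domains without the proteinase, and TIMPs block the active site of MMPs and of some ADAMs and ADAMTSs.

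The part of the coding sequence that makes an MMP or ADAM an enzyme is shown first, because the families divide on it. The stretch encodes a His-Glu-X-X-His-X-X-Gly-X-X-His pattern, in which the 3 histidines hold the zinc ion and the glutamate takes part in catalysis. Each run is 33 bases of coding sequence, 5′ to 3′ on the coding strand, from GENCODE M21 transcripts on GRCm38. Capitals mark the codons of the 3 histidines, the glutamate and the eighth residue of the pattern, usually glycine.
Mmp2 (chr8:92839279-92839311, plus strand): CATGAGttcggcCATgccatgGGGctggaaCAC
Mmp14 (chr14:54437627-54437659, plus strand): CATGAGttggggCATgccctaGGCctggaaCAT
Mmp9 (chr2:164951133-164951165, plus strand): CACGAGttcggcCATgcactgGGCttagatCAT
Mmp12 (chr9:7352914-7352946, plus strand): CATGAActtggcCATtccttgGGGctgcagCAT
Adam17 (chr12:21336732-21336764, minus strand): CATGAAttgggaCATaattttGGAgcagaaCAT
Adam12 (chr7:133961158-133961190, minus strand): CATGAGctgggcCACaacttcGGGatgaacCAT
Adamts2 (chr11:50775403-50776134, plus strand): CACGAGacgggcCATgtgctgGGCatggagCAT
Adamts1 (chr16:85799191-85799545, minus strand): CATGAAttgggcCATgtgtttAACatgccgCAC
Adamts8 (chr9:30952721-30953378, plus strand): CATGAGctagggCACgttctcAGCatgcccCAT
Adam22 (chr5:8143064-8143096, minus strand): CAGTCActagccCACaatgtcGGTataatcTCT
Adam23 (chr1:63547763-63547795, plus strand): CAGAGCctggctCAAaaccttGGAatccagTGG

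The runs of Adam22 and Adam23 are those that aligned with the pattern of Adam12, with the same places in capitals, and neither encodes the pattern. In the translated coding sequences all 15 listed Mmp genes held the glycine form of the pattern. Of the 12 listed Adam genes 9 held it, and Adam11, Adam22 and Adam23, known as catalytically inactive adhesion proteins of the nervous system, did not. All 16 listed Adamts genes held the zinc-binding residues, with glycine at the eighth position in 10, asparagine in 5 (Adamts1, Adamts4, Adamts9, Adamts15 and Adamts20) and serine in Adamts8. None of the 5 Adamtsl genes held the pattern.

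The place of the stretch in the gene also differed by family. In the 15 Mmp genes it lay within a single exon, which was exon 5 in 12 of them and exon 8 in the gelatinase genes Mmp2 and Mmp9, counted in the transcript used. In 8 of 9 Adam genes it lay within 1 exon, in 6 of them exon 11, and in Adam10 it was split by an intron. In the 15 Adamts genes whose positions were read the stretch was split between 2 exons, and Adamts19 was left out of this reading. The spans given for Adamts2, Adamts1 and Adamts8 therefore include an intron that the printed bases leave out.

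The inhibitors carry no such site. The amino terminus of a mature TIMP begins with a cysteine whose backbone chelates the zinc of the enzyme, and the 36 coding bases that start there are shown for the 4 genes, with the first and the third codon, both for cysteine, in capitals.
Timp1 (chrX:20871111-20871146, plus strand): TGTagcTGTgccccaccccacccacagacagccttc
Timp2 (chr11:118354977-118355012, minus strand): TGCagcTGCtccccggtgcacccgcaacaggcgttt
Timp3 (chr10:86300923-86300958, plus strand): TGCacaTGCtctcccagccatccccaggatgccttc
Timp4 (chr6:115251656-115251691, minus strand): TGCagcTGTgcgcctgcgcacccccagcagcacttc

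The stretch lay within 1 exon in each gene. Over their whole length the 6 pairs of translated TIMPs were 40.1% to 49.3% identical. Timp2 and Timp4 were the most alike pair and Timp1 and Timp3 the least, at 49.3% and 40.1%.

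Of the 84 genes of these families in the annotation 61.9% were listed. All 4 Timp and all 5 Adamtsl genes were among the rows, with 16 of 19 Adamts genes, 15 of 23 Mmp genes and 12 of 33 Adam genes. The 21 Adam genes that were not among the rows used here included Adam2, Adam3, Adam5, Adam18 and Adam32, which are known from sperm and testis. According to the methods, a gene was kept only if it passed 1 CPM in at least 3 samples. A gene outside the table may therefore have been expressed at a lower level, but why each gene was absent was not tested. The macrophage marker Adgre1 was also absent, while the other 9 macrophage markers read were listed at 3.54 to 9.12 log2 CPM.

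Timp2, Mmp2 and Mmp14 were the most abundant members. Their mean levels were 8.29, 7.73 and 7.54 log2 CPM, above 97.9%, 96.3% and 95.6% of all rows. The next member, Adamts2, was above 89.7% of rows. The group as a whole stood somewhat below the typical row. Its median, these genes included, was 3.66 log2 CPM beside 4.03 over all rows, and 20 of 52 members were above the latter.

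Levels of different genes were compared per length, because long mRNAs give more fragments. The mean log2 CPM was lowered by log2 of the length in kb of the longest annotated coding transcript. The sources do not say whether counts or length-scaled abundances entered the CPM, so the unscaled mean log2 CPM is given as well for the genes described in each family. On the per-kb scale the median was 1.35 over the members and 2.28 over all rows, and 19 of 52 members were above the latter. Timp2, Mmp2 and Mmp14 were above 95.6%, 94.6% and 93.4% of rows on this scale, and the next member, Adamtsl5, above 82.5%. Choosing the longest transcript gives each gene its lowest value among the lengths tried, and the highest is given in brackets where it matters. This range shows the choice of length and is no error. Many shortest and some median coding transcripts were shorter than the gene's longest coding sequence and cannot hold it whole. For Mmp14 the shortest had 334 bases, against 1746 coding bases. Values, orders and ratios that rest on such transcripts are less secure than those with the longest transcript or the coding length.

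**Figure D1:**
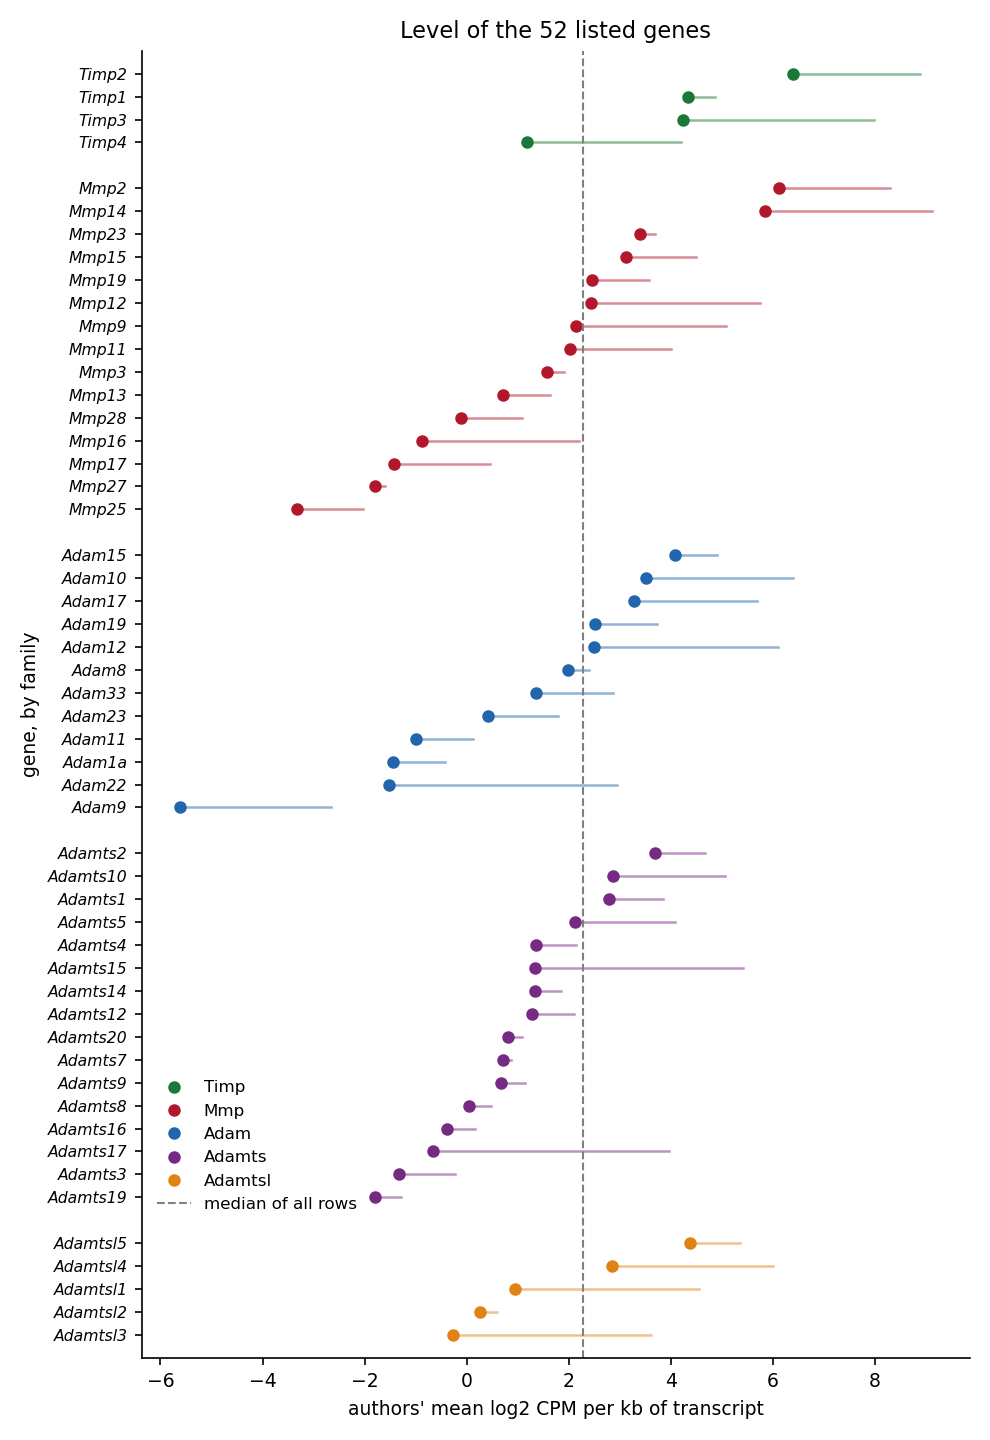
Authors' mean log2 CPM per kb of transcript (x axis) of the 52 listed genes (y axis), by family. Points use the longest coding transcript, lines reach to the highest value over 4 choices of length and are no error bars, and the dashed line is the median of all rows, 2.28; Timp2, Mmp2 and Mmp14 stand at 5.84 or above and Adam9 at −5.62.

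Among the inhibitors Timp2 was highest and Timp4 lowest. Timp2, which binds proMMP2 and MMP14 at the cell surface as well as inhibiting both, had 6.40 log2 CPM per kb (up to 8.89). Timp1, a secreted inhibitor induced in injury and inflammation, had 4.34 per kb (up to 4.86) and 4.16 log2 CPM. Timp3, which is held in the matrix and also blocks ADAM17 and aggrecanases, had 4.24 per kb (up to 7.98) and 6.48 log2 CPM. Timp3 was higher than Timp1 before division by length and with the median transcript (5.13 against 4.38), the shortest (7.98 against 4.42) and the coding length (7.13 against 4.86), and Timp1 was marginally higher with the longest transcript only. Timp4 had 1.17 per kb (up to 4.21) and 3.63 log2 CPM, and was the single inhibitor below the median of all rows, both unscaled and per kb of the longest transcript. The level of Timp2 per kb was 37.3 times that of Timp4 (25.6 to 37.3 over the 4 lengths), 4.16 times that of Timp1 (4.16 to 20.3) and 4.47 times that of Timp3 (1.72 to 4.47).

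Timp1, Timp3 and Timp4 each lie inside a synapsin gene on the opposite strand. Of the 31-base words in the longest Timp3 transcript 36.3% were also in transcripts of Syn3, and 1.12% of those of Timp4 in transcripts of Syn2. The synapsin rows were low, with Syn1 at −0.22, Syn2 at −0.53 and Syn3 at −0.18 log2 CPM. The levels of Timp3 and Syn3 are uncertain to the extent that reads of 1 strand were assigned to the other gene.

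The Mmp genes ranged from 6.11 to −3.33 log2 CPM per kb. Mmp2, a gelatinase that cuts denatured collagen and basement membrane, had 6.11 per kb (up to 8.30). Mmp14, the membrane-type enzyme that activates proMMP2 and cuts fibrillar collagen, had 5.84 (up to 9.12). With the shortest coding transcript, which for Mmp14 is too short to hold its whole coding sequence, Mmp14 was the highest of all members. With each of the other 4 settings of length, no length included, Timp2 was. The next 4 per kb of the longest transcript were Mmp23 at 3.39 (3.91 log2 CPM unscaled), Mmp15, another membrane-type enzyme, at 3.12 (5.48), Mmp19 at 2.47 (4.23) and Mmp12, the macrophage elastase, at 2.43 (4.28). Their order depended on the length. Mmp12 was above Mmp23 with the median transcript (3.88 against 3.39), the shortest (5.74 against 3.39) and the coding length (3.77 against 3.68), and Mmp15 was the highest of the 4 with the coding length, at 4.50, and without length. The reading of Mmp19 is uncertain, because 22.5% of its 31-base words were also in transcripts of Tmem198b on the opposite strand, whose own row had 3.44 log2 CPM. The lowest were Mmp27 at −1.80 (−0.87 unscaled) and Mmp25, a leukocyte membrane-type enzyme, at −3.33 per kb (−1.15), and they were the lowest 2 Mmp genes under each length.

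Mmp2 was 15.7 times Mmp9, the other gelatinase, per kb (9.37 to 16.7 over the lengths). Mmp14 was 6.61 times Mmp15 (4.70 to 64.0) and 105 times Mmp16 (22.2 to 122). The 2 gelatinases held 42.8% of the summed Mmp level per kb (34.4% to 48.3% over the 4 lengths) and the 3 listed transmembrane membrane-type enzymes 38.8% (33.3% to 56.1%), so which of these groups held more depends on the length. The GPI-anchored Mmp17 and Mmp25 held 0.274% (0.0465% to 0.542%). Mmp13, the only listed collagenase of the 4 in the annotation, held 0.952% (0.161% to 1.03%), and Mmp3, the only listed stromelysin of 2, 1.73% (0.293% to 1.73%). The sums add 2 to the power of each mean log2 value, which is a geometric and not an arithmetic mean over samples.

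Activation by pro-protein convertases is written in some MMP sequences. An Arg-X-Arg/Lys-Arg pattern before the zinc pattern, the kind furin cuts, was found in 8 of the 15 listed Mmp genes, Mmp11, Mmp14, Mmp15, Mmp16, Mmp17, Mmp23, Mmp25 and Mmp28. Their median level was 0.96 log2 CPM per kb of the longest transcript, and that of the other 7 was 2.14. Both sets ran over a wide range, from −3.33 to 5.84 with the pattern and from −1.80 to 6.11 without it. Furin itself had 6.24 log2 CPM and 4.13 per kb, the highest of the 4 convertase genes.

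A run of 10 Mmp genes stands on chromosome 9, from Mmp13 to Mmp7 over 427 kb (chr9:7272514-7699585 on GRCm38). Of the 10 genes 4 were listed. Mmp12 had 4.28 log2 CPM, Mmp3 2.42, Mmp13 2.13 and Mmp27 −0.87, and per kb the values were 2.43, 1.57, 0.71 and −1.80. Mmp1a, Mmp1b, Mmp7, Mmp8, Mmp10 and Mmp20 were not among the rows used here. Mmp1a is annotated as a polymorphic pseudogene and is counted here among the Mmp genes. Mmp8, the neutrophil collagenase, lies directly before Mmp27, with a gap of 2.91 kb. Mmp12 was 3.29 times Mmp13 per kb (3.29 to 32.7). The row of Mmp3 is uncertain by its likeness to Mmp10, with which 11.4% of its 31-base words were shared, and the 3′ end of Mmp12 overlaps Mmp1b on the opposite strand.

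**Figure D2:**
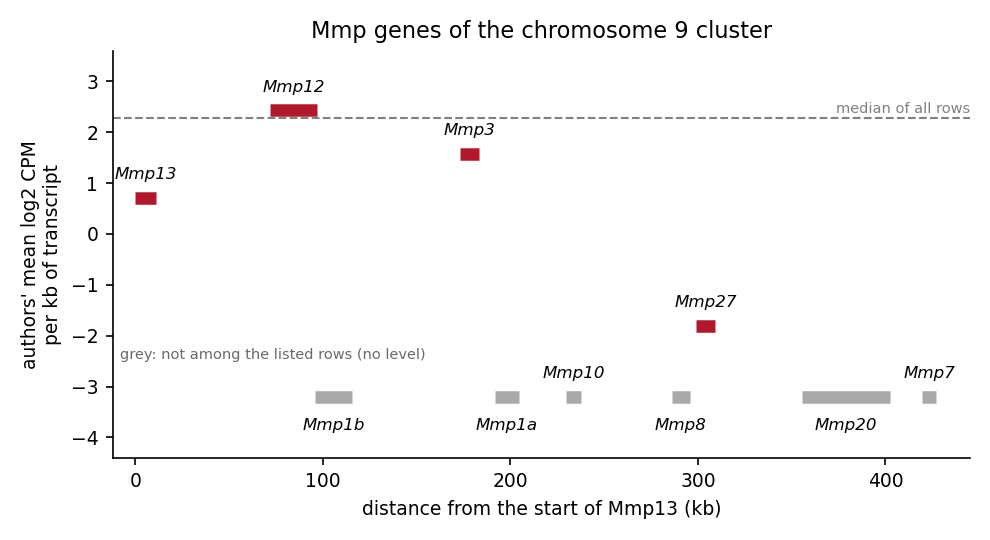
Mmp genes of the chromosome 9 cluster, as distance from the start of Mmp13 in kb (x axis) against the authors' mean log2 CPM per kb (y axis). Bars span each gene; red bars are the 4 listed genes at their levels, grey bars the 6 genes not among the rows, drawn without a level, and Mmp12 is the only one above the dashed median of all rows.

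Among the ADAMs the order at the top depended on the length. With the longest transcript Adam15 had 4.08 log2 CPM per kb (5.66 log2 CPM unscaled), Adam10, which releases Notch and cadherin ectodomains, 3.52 (5.72), and Adam17, the enzyme that releases TNF, 3.27 (5.43). Adam10 and Adam17 stood close, with a ratio of 1.19 per kb (1.19 to 2.08 over the lengths), and their translated sequences were 32.2% identical. Adam19 had 2.52 per kb (5.19 unscaled) and Adam12, which is known in muscle regeneration and myoblast fusion, 2.49 (5.43). Adam12 was the highest Adam gene with the median transcript, at 4.39 against 4.33 for Adam10 and 4.15 for Adam15, and was next to Adam10 with the shortest, at 6.10 against 6.40. Adam8, a leukocyte enzyme, had 1.98 per kb (3.62 unscaled). Adam9 was the lowest Adam gene under each length, at −5.62 per kb (−3.61 unscaled). Adam22 was next at −1.53 per kb (1.68 unscaled) with the longest transcript only.

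Of the ADAMs without the zinc pattern, Adam23 had 0.42, Adam11 −0.996 and Adam22 −1.53 log2 CPM per kb of the longest transcript, beside a median of 2.49 for the 9 with the pattern. Adam22 depended on the length, with 2.09 for the median transcript and 2.94 for the shortest, above Adam8 in both (1.99 and 2.40). Those Adam22 lengths, 750 and 417 bases, are below its 2781 coding bases. With the coding length Adam22 had 0.20 and Adam8 2.31. The ranges overlapped also with the longest transcript, since Adam1a and Adam9, which hold the pattern, had −1.44 and −5.62. The row of Adam1a cannot be read with confidence, because 99.3% of its 31-base words were also in transcripts of Gm42878 on the same strand. Gm42878 was not among the rows. Transcripts of Mapkapk5, on the same strand and at 5.70 log2 CPM, held 37.3% of the Adam1a words. Those of Tmem116, on the opposite strand and at 0.84 log2 CPM, held 17.3%. Adam15 shared 18.3% of its words with a gene on the opposite strand that was not among the rows.

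The 5 Adam genes above the median of all rows per kb of the longest transcript were Adam15, Adam10, Adam17, Adam19 and Adam12. Partners were read for ADAM10 and ADAM17 only. Of 9 genes whose products escort ADAM10 or ADAM17 to the cell surface 8 were listed, from 1.67 (Tspan33) to 5.21 (Rhbdf1) log2 CPM. Tspan33 was above 20.2% of all rows and Rhbdf1 above 72.5%. For ADAM17, Rhbdf1 had 5.21 and Rhbdf2 4.03, and for ADAM10, Tspan14 had 4.87 and Tspan15 3.92 log2 CPM. Tspan10 was not among the rows used here.

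Adamts2, which removes the amino propeptide of fibrillar procollagens, had 3.68 log2 CPM per kb (6.54 log2 CPM unscaled, above 89.7% of rows). It was the highest Adamts gene with each length but the shortest. There, with transcripts shorter than their own coding sequences, Adamts15 (5.41), Adamts10 (5.07), Adamts17 (3.97) and Adamts1 (3.85) were above Adamts2. Its relatives Adamts14 and Adamts3 had 1.34 and −1.33 per kb (3.71 and 0.65 unscaled), so that Adamts2 was 5.07 times the first (3.56 to 7.08 over the lengths) and 32.3 times the second (15.0 to 59.1). Adamts2 was 54.4% identical to Adamts14 and 60.3% to Adamts3 in translated sequence, so the closer relative was the less abundant one. These 3 genes held 31.8% of the summed Adamts level per kb (12.2% to 32.5% over the lengths).

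The 7 genes known to cut proteoglycans such as aggrecan and versican held 41.9% of that sum (41.9% to 49.0%). Adamts1 had 2.79, Adamts5 2.13, Adamts4 1.36 and Adamts15 1.34 log2 CPM per kb of the longest transcript, with 3.49 for Adamts4 and 3.91 for Adamts15 unscaled, and the lowest of the 7 was Adamts8 at 0.05 (1.91 unscaled). Adamts5 was 0.63 times Adamts1 per kb, but the ratio ran from 0.30 to 1.46 over the lengths and the order of these genes therefore depends on the transcript chosen. Before division by length Adamts5 was the higher, with 5.56 against 5.07 log2 CPM. Adamts1 and Adamts5 are neighbours on chromosome 16, 53.1 kb apart, and 43.9% identical in translated sequence.

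Of the remaining Adamts genes Adamts10, which acts with fibrillin microfibrils, was highest at 2.88 per kb (4.89 unscaled). The lowest Adamts genes under each length were Adamts3 at −1.33 and Adamts19 at −1.79 per kb (0.65 and 0.58 unscaled). Of the proteoglycan substrates Vcan (versican) had 5.64 and Acan (aggrecan) 1.39 log2 CPM, and the brain proteoglycans Ncan and Bcan had −0.60 and −1.75. Adamts6, Adamts13 and Adamts18 were not among the rows used here.

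All 5 ADAMTS-like genes were listed. Adamtsl5 had 4.38 log2 CPM per kb (5.35 unscaled), rank 4 of the 52 members, and Adamtsl4, which binds fibrillin-1, had 2.85 (4.86). Adamtsl1 had 0.95 (3.92), Adamtsl2, which binds latent TGF-β-binding protein and fibrillin-1, 0.26 (2.11), and Adamtsl3 −0.26 (2.60). With the shortest transcript Adamtsl4 was the highest of the 5, at 6.01 against 5.36 for Adamtsl5, and Adamtsl1 had 4.55. Those shortest transcripts are shorter than the coding sequences of the same genes. Fbn1, the gene of fibrillin-1, had 7.99 log2 CPM. The rank of Adamtsl5 depends on the scale, and before division by length it was 12.

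**Figure D3:**
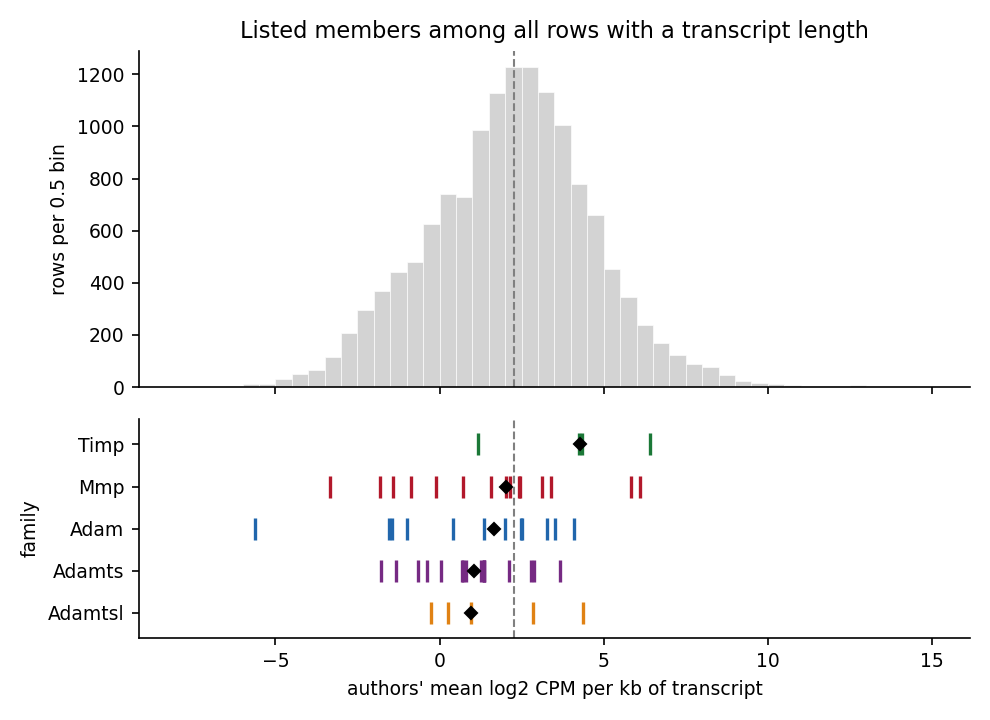
Upper panel, number of rows (y axis) per 0.5 of authors' mean log2 CPM per kb (x axis), over all rows with a transcript length; lower panel, the listed genes of each family as ticks with the family median as a diamond. The Timp median, 4.29, is the only family median to the right of the dashed median of all rows, 2.28.

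By family the median level per kb was 4.29 for Timp, 2.03 for Mmp, 1.67 for Adam, 1.04 for Adamts and 0.95 for Adamtsl genes. Without division by length the medians were 5.32, 3.22, 3.36, 3.64 and 3.92 log2 CPM, so the Timp genes stayed first and the other families changed order. Of the summed level per kb of all members the Mmp genes held 39.3%, the Timp genes 28.7%, the Adam genes 13.4%, the Adamts genes 11.3% and the Adamtsl genes 7.30%. Timp2 held 19.2%, Mmp2 15.8% and Mmp14 13.1%, together 48.2%. The summed Timp level was 0.73 times the summed Mmp level, with a range of 0.71 to 2.21 over the 4 lengths, so these data do not settle which sum was the greater. An mRNA ratio is no ratio of proteins or of activity.

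**Figure D4:**
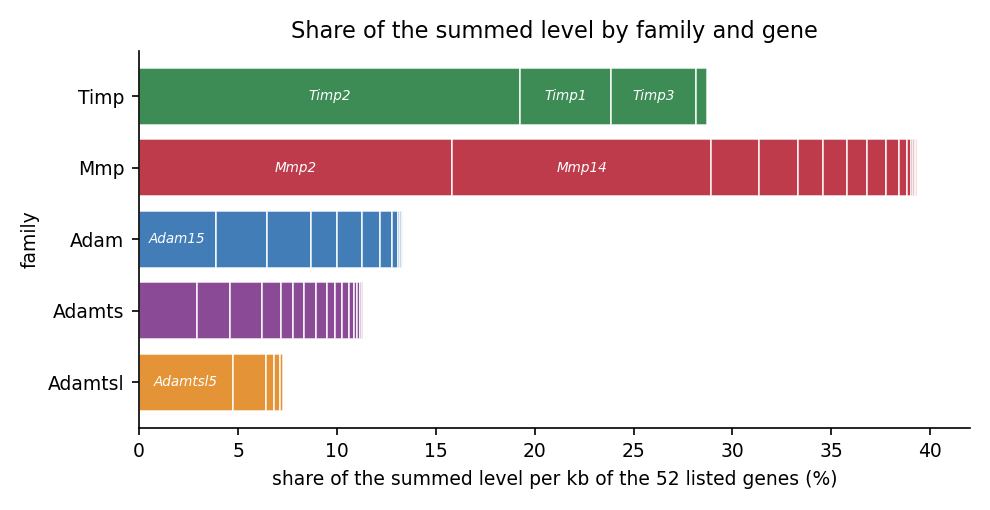
Share of the summed level per kb of the 52 listed genes (x axis, %) by family (y axis), with 1 segment for each gene in order of level. Timp2, Mmp2 and Mmp14 hold 48.2% between them.

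Other genes that control these enzymes were read from a list of 50, of which 43 were listed, with a median of 4.03 log2 CPM. Of the other inhibitors Reck, a membrane-anchored inhibitor of MMPs, had 0.89, Tfpi2 1.63 and A2m, the gene of α2-macroglobulin, −4.53 log2 CPM per kb. All 3 were below Timp1, Timp2 and Timp3 on that scale, and Tfpi2 was above Timp4. Unscaled, Reck had 3.04, Tfpi2 2.24 and A2m −2.32 log2 CPM, each below Timp4 at 3.63. In the plasminogen system, which can activate proMMPs, Plau (urokinase) had 5.26, Plat 4.79 and Plaur 2.40, and the inhibitor Serpine2 had 6.94 log2 CPM. Bsg (basigin, an inducer of MMPs) had 9.09, Lrp1, an uptake receptor for several MMPs and TIMP complexes, 8.29, and Cd44, a docking protein, 5.74 log2 CPM. Bmp1, a metzincin outside these families that removes the carboxyl propeptide of procollagens, had 5.72 log2 CPM and 3.84 per kb.

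The tissue label was checked against markers. All 10 muscle fibre markers were listed, from 10.56 to 14.65 log2 CPM, with Acta1 at 14.30 and Myh4 at 14.65. All 10 fibroblast markers were listed (5.73 to 11.75), 9 of 10 macrophage markers (3.54 to 9.12, Adgre1 not among the rows), all 8 endothelial markers (3.56 to 6.53) and all 6 satellite cell and myoblast markers (−0.78 to 6.37). Neutrophil markers were few and low, 4 of 10 with a highest value of 1.76, beside Mmp9 at 3.81, Mmp25 at −1.15 and Mmp8 not among the rows. Of 10 eosinophil markers only Ear2 was listed, at 0.13 log2 CPM. Which cells made the members' mRNA was not tested.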

How the data were processed

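Total RNA of quadriceps was selected for polyA with an ERCC spike-in and sequenced as paired ends at a service provider. According to the methods, the authors pseudoaligned reads with kallisto, assigned genes with ensembldb, computed CPM with edgeR, kept genes over 1 CPM in at least 3 samples, log transformed, scaled by the trimmed mean of M-values and compared genotypes with limma. Per the labels, the submitters' processing notes name builds GRCm39 and mm39. The deposited table gave for each gene the authors' mean log2 CPM, used here, and the authors' comparison of the genotypes (log2 fold change, moderated statistic, p-value, adjusted p-value and log odds), which was not used. It held no values per sample, so the planned limma comparison of 3 against 3 mice was not made. In place of groups, levels were described over all samples together.

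Symbols were matched to GENCODE M21 on GRCm38: 13458 rows directly, 487 by an older symbol and 71 not at all, and 99.5% of rows had a length. Coordinates, exons and coding sequences come from that annotation, not from the authors' build. Patterns and identities (global alignment, BLOSUM62, Biopython 1.88) were computed from translated coding sequences. Lengths are those of annotated transcripts, or of their coding part, in bases. Shared sequence was counted as 31-base words on either strand. The pattern search was tested on simulated protein sequences, and the calculation of levels was not tested. Python 3.11.15, pandas 2.3.3 and numpy 2.4.6 were used. Values are given for all Timp genes, for the 6 highest and the 2 lowest of each other family per kb and for the chromosome 9 cluster. Other genes are named where a role, a shared sequence or a scale required it. Members, lists and roles were chosen with earlier results of these data known, and the asparagine and serine forms of the zinc pattern were added after the sequences were seen. Alternatives were other transcript lengths, filters on low values and another reading of the rule.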

Additional observations from a re-analysis of the deposited data

How the results depend on the processing

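No paired analysis was possible because the table held no values per sample; other forms of the genotype comparison (replicate block, leaving out each replicate, median centring, a filter) were not run for the same reason. Requiring a further character after the digit left 30 members, which drops genes with a single-digit number, a mean of at least 3 log2 CPM left 34, and a mean of at least 1 left 46. The family medians moved with the length. With the median coding transcript they were 2.74 (Mmp), 4.76 (Timp), 2.04 (Adam), 1.09 (Adamts) and 2.91 (Adamtsl), with the shortest 3.07, 6.20, 2.69, 1.43 and 4.55, with the coding length 2.66, 5.998, 2.05, 1.502 and 1.52, and with no length 3.22, 5.32, 3.36, 3.64 and 3.92. With a mean of at least 1 log2 CPM required, the medians per kb were 2.14 (Mmp), 2.24 (Adam) and 1.31 (Adamts), and those of Timp and Adamtsl did not move. The Timp median was the highest of the 5 under each of these settings. The Timp share of the summed level was 30.9% with the median transcript, 31.6% with the shortest, 55.1% with the coding length and 26.3% with no length. The coding length was taken from the annotation, since no table of proteins was used. The rank correlation of the members' levels with the main setting was 0.82 to 0.96. Depth and the spread between mice are unknown and limit every level given.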

Other observations

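Adam9 was the lowest member, at −3.61 log2 CPM, and 20 of the 14016 rows were at or below it. The stated filter kept genes over 1 CPM, a log2 CPM of 0, in at least 3 samples. If the mean covers the 6 samples, the filter was applied to these samples and both are on 1 scale, a mean below 0 bounds the samples that the filter did not need: the other 3 would average below −7.21 for Adam9, −2.30 for Mmp25 and −1.75 for Mmp27. Which samples these would be is not in the table. The bounds follow from the stated conditions and are no measured levels. The lowest mean of any row was −4.08 log2 CPM, so the bound for Adam9 lies below every mean given. Whether the conditions held for these genes was not tested. Of all rows 1198, or 8.55%, had a mean below 0, and of the members 3, or 5.77%. Whether the filter was applied to a wider set of samples was not tested.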
